A study of Mus musculus with 8 samples.

Results

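The 10 genes described here belong to the bone morphogenetic protein (BMP) pathway: the ligand genes Bmp2, Bmp4 and Bmp7, the receptor gene Bmpr1a, the antagonist gene Grem1, the inhibitory SMAD genes Smad6 and Smad7, and the inhibitor of DNA binding genes Id1, Id2 and Id3. They were found on the array by matching the RefSeq accession of each probe, without its version, to these symbols, which gave 11 of 55681 probes. Of these, 10 probes, 1 for each gene, passed the filter on dim probes, as did 30364 probes in all. RNA came from nephron progenitors sorted by fluorescence from mouse kidneys at embryonic day 15.5, strain C57BL/6 per the labels. The mutant kidneys carried a Six2CreEGFP transgene with floxed alleles of the histone deacetylase genes Hdac1 and Hdac2 (written HDAC1&2f/f in the labels). The wildtype kidneys carried the same transgene with unfloxed alleles (HDAC1&2+/+). The Six2 promoter drives both Cre and the green protein used for the sort, so all cells of both groups carried the transgene, and deletion was limited to cells in which it had been active. Each group had 4 pools, and the sources used here do not say how many kidneys went into one.

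BMPs are secreted dimers that bring type I and type II serine/threonine kinase receptors together at the cell surface. The activated type I receptor phosphorylates SMAD1, SMAD5 and SMAD9, which join SMAD4, enter the nucleus and switch on targets such as the Id genes, Smad6 and Smad7. The 2 inhibitory SMADs, and secreted antagonists such as gremlin, limit the signal. In the embryonic kidney BMP7 is made by the cap mesenchyme and the ureteric bud and is needed to keep nephron progenitors alive and proliferating, BMP4 is made by stromal cells around the ureter and bud, and gremlin 1 restrains BMP4 so that the bud can grow out.

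Every value below is a log2 ratio of the pool in Cy5 over one common RNA in Cy3, that of wildtype pool 1, unless it is called a level or a difference. Pools 3 and 4 of each group differed from each other by no more than arrays differ on the same RNA (median absolute deviation of Cy5 levels 0.0604 in mutant and 0.0565 in wildtype, against 0.0455 to 0.0784 for Cy3 levels in the 21 array pairs without wildtype 2, and up to 0.0998 in pairs with it), so their mean was counted as 1 sample and each group had 3. The series' design text calls the pools biological replicates but does not tie them to animals, so the p-values measure only the spread between these samples. Some arrays stood apart. Different probes of one gene disagreed most on the mutant 1 array, with a median SD of 0.245, against 0.0826 to 0.142 on the other 7, and on the wildtype 2 array 48627 probes were well above background in Cy5, against 28150 to 33982 on the others. The SD of 0.0826 was on the wildtype 1 array, which held wildtype pool 1 in both dyes and so compared it with itself. Hdac1 was lower in mutant samples in all 3 pool pairs by each of its 3 probes, at 81.4%, 75.7% and 67.4% of wildtype (limma adjusted p from 0.376 to 0.58), and Hdac2 was at 91.4% (adjusted p = 0.879). Where the probes lie relative to the deleted exons was not analysed here. All 10 nephron progenitor markers examined, Six2 among them, were well above background on all 8 arrays, and 1 of them, Cited1, fell (adjusted p = 0.00355). All arrays lay on 1 slide from 1 scan, with the mutant arrays in one row and the wildtype arrays in the other, so slide row and group cannot be told apart. Each pool number had the same slide column in both groups, so pool number and slide column cannot be told apart. In RNA from sorted pools, fewer cells of a type and less RNA per cell cannot be told apart either.

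None of the 10 genes passed limma at an adjusted p under 0.05, where 8 of 30364 probes (0.0263%) did (4 higher, 0.0132%, and 4 lower, 0.0132%). At an unadjusted p under 0.05, 3 of the 10 passed, Bmp2, Bmp7 and Grem1, all higher in the mutants, against 6.45% of all probes. That count was 1 without the mutant 1 array, without the wildtype 3 and 4 arrays, with Agilent processed signals or with an offset of 10, and 0 with spike-in centring. The same 3 were the ones whose mutant and wildtype samples did not overlap; 8.05% of all probes were higher in the mutants without overlap. When pool number entered the fit as a replicate block, 0 of the 10 passed after adjustment (35 of all probes, 0.115%) and 4 at an unadjusted p under 0.05, Smad6 being the fourth, against 11.2% of all probes. Differences among the 10 ran from -0.18 to 0.47 with a median of 0.145, while the median of all genes, taken at their brightest probe, was 0.00171. The mutant sample was the higher one in all 3 pool pairs for 5 of the 10, Bmp2, Bmp7, Grem1, Smad6 and Id1 (21.5% of all probes), and with Bmpr1a, lower in all 3, 6 of the 10 had one direction throughout (38.1% of all probes). By exact two-sided permutation of the sample labels, Bmp2, Bmp7 and Grem1 each had p = 0.1, the smallest that 3 against 3 samples allow.

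**Figure D1:**
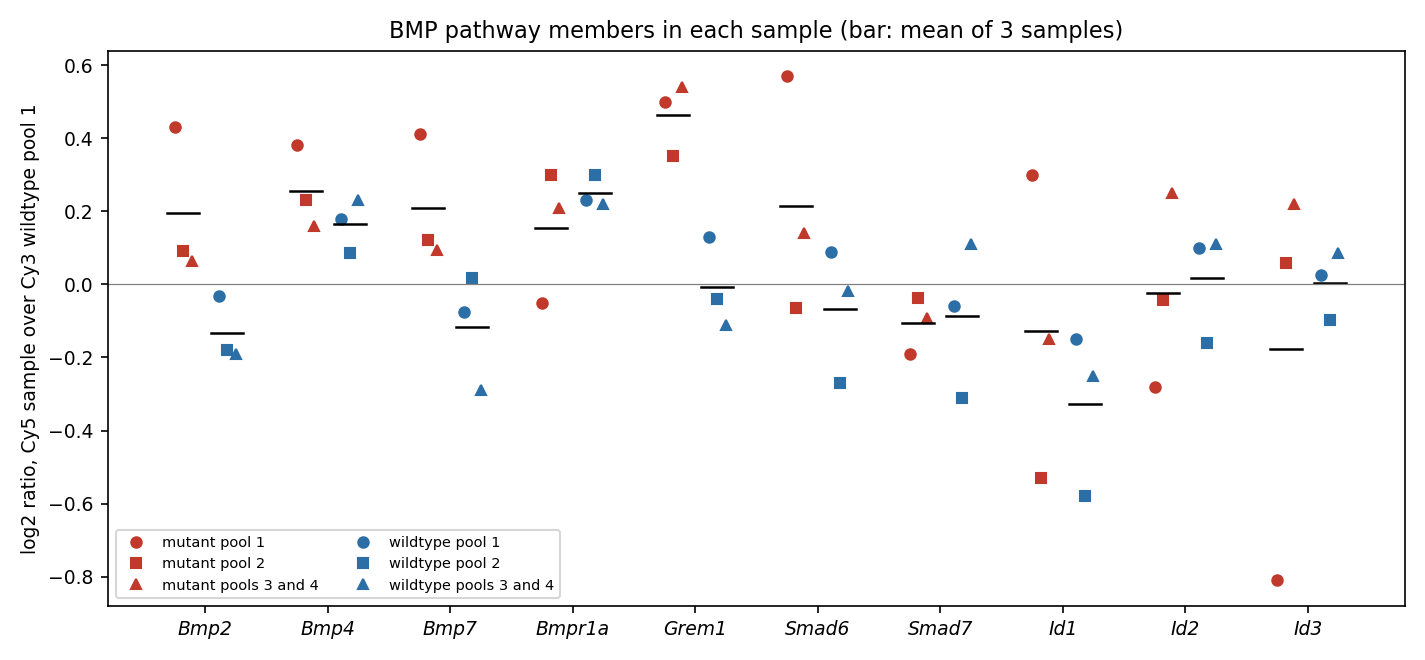
Log2 ratio of Cy5 over Cy3 (wildtype pool 1) for the 10 genes in the 3 mutant samples (red) and the 3 wildtype samples (blue); black bars are group means, and marker shapes show the pool number. Bmp2, Bmp7 and Grem1 have no overlap between the groups, and mutant pool 1 lies at an end of the range for 8 of the 10 genes.

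Among the ligands, Bmp2 encodes a BMP that appears early in forming renal vesicles. Bmp2 read 0.43, 0.0921 and 0.064 in mutant pool 1, mutant pool 2 and the mean of mutant pools 3 and 4, against -0.0323, -0.18 and -0.19 in the wildtype samples of the same numbers. Every mutant sample lay above every wildtype sample, with mutant pool 1 well above the other mutant samples. Bmp2 averaged 0.2 ± 0.21 in mutant and -0.13 ± 0.0878 in wildtype samples (SD, n = 3), a difference of 0.33 ± 0.13 (SE), or a mutant level of 126% of wildtype with a 95% interval of 102% to 155% (limma, unadjusted p = 0.0376, adjusted p = 0.735). The difference was 0.21 without the mutant 1 array.

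Bmp7, the ligand on which the progenitors depend, behaved much like Bmp2. It read 0.41, 0.12 and 0.0929 in the mutant samples, against -0.075, 0.0186 and -0.29 in wildtype samples. The groups did not overlap, although the samples of pool 2 lay only 0.1 apart, against 0.48 for pool 1 and 0.38 for pools 3 and 4. The means were 0.21 ± 0.17 in mutant and -0.11 ± 0.16 in wildtype samples (SD, n = 3), so that the mutant level was 125% of wildtype, with a 95% interval of 101% to 155% (difference 0.32 ± 0.13 SE, adjusted p = 0.76 by limma).

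Bmp4 was measured by 2 probes, of which the dimmer was well above background on 0 of 8 arrays and was not tested. At the brighter one the mutant samples read 0.38, 0.23 and 0.16, against 0.18, 0.0863 and 0.23 in the wildtype samples. The ranges overlapped, and the wildtype sample was the higher one in pools 3 and 4. The difference was 0.0893 ± 0.1 (SE), with a 95% interval for the mutant level of 89.7% to 126% of wildtype (limma adjusted p = 0.881).

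Bmpr1a encodes ALK3, a type I receptor for BMP2 and BMP4. It read -0.0515, 0.3 and 0.21 in mutant samples, against 0.23, 0.3 and 0.22 in wildtype samples. Mutant pool 1 alone lay apart. In the other pools mutant and wildtype differed by -0.00279 and -0.00741. The difference over all samples was -0.0963 ± 0.12 (SE), with a 95% interval of 77.1% to 113% of wildtype (adjusted p = 0.885), and without the mutant 1 array it was 0.00538.

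Grem1, whose product binds BMP2, BMP4 and BMP7 outside the cell and keeps them from their receptors, differed most among the 10. It read 0.5, 0.35 and 0.54 in mutant samples, against 0.13, -0.0403 and -0.11 in wildtype samples. The lowest mutant sample was above the highest wildtype sample, and all 4 mutant arrays were above all 4 wildtype arrays, as was true in one direction or the other of 9.42% of all probes. Means were 0.46 ± 0.0991 in mutant and -0.00918 ± 0.12 in wildtype samples (SD, n = 3). The mutant level was 138% of wildtype, with a 95% interval of 116% to 166% (difference 0.47 ± 0.11 SE, unadjusted p = 0.00357, adjusted p = 0.396 by limma). Leaving out the mutant 1 array gave 0.45.

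The size of the Grem1 difference depended on the processing. Against 0.47 as reported, it was 0.69 with an offset of 10, 0.65 with median centring, 0.8 in Cy5 alone and 0.29 with spike-in centring. Median centring, Cy5 alone and spike-in centring also moved the median of all probes, to 0.0654, 0.145 and -0.176. The probe was dim, with log2 Cy5 levels of 7.14 to 7.49 on the mutant arrays and 6.77 to 6.91 on the wildtype arrays, although it was well above background on all 8. The constant of 50 added to every signal before taking logs draws ratios of dim probes towards 0. In Agilent's own processed signals, which have no such constant, Grem1 read 1.15, 0.8 and 1.14 in mutant samples, against 0.22, -0.14 and -0.0231 in wildtype samples. That is a difference of 1.01 ± 0.16 (SE), a 2.02-fold higher mutant level, still with an adjusted p of 0.236. Those signals were also background-corrected and scaled by another program, and the cause of the larger difference was not tested. When the 8 arrays were counted as separate samples, Grem1 passed (difference 0.51, adjusted p = 0.0353, or 0.0422 with the replicate block), a count that takes pools 3 and 4 as independent. In Cy3, which held one RNA on every array, the Grem1 probe was itself 0.2 higher on mutant than on wildtype arrays, and the other 9 tested probes differed there by -0.0412 to 0.15.

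**Figure D2:**
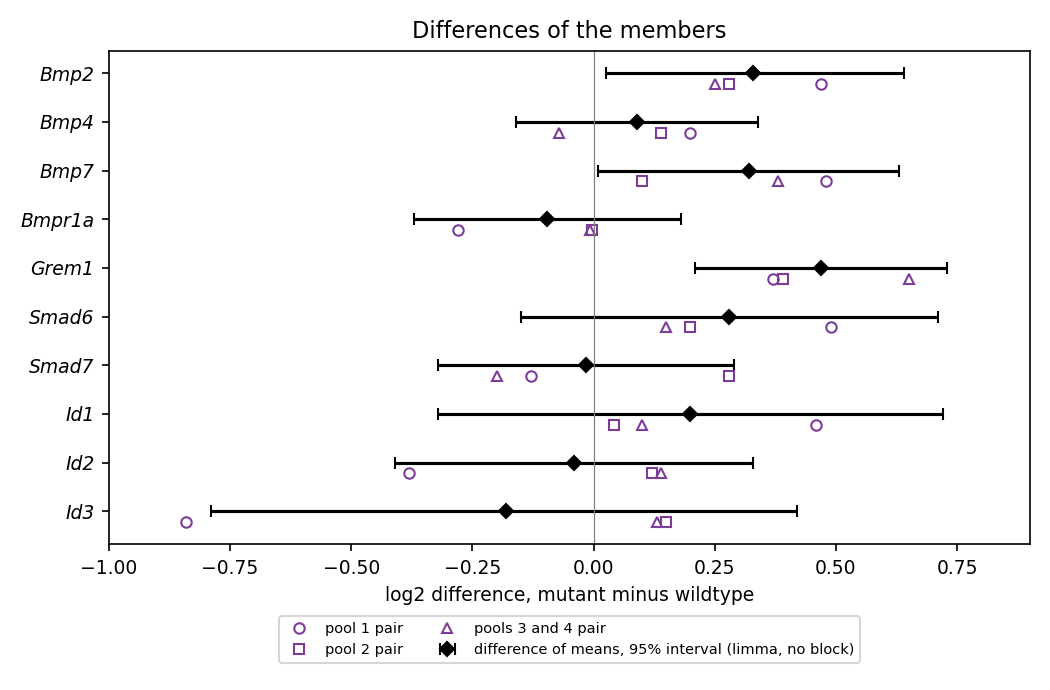
Log2 difference, mutant minus wildtype, of each gene: black diamonds are differences of means over 3 against 3 samples with the 95% interval of the limma fit, open symbols the difference within each pool pair. The intervals of Bmp2, Bmp7 and Grem1 lie above 0; in 7 of 10 genes the interval includes 0.

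Smad6 and Smad7 encode the inhibitory SMADs, which occupy activated type I receptors and are themselves induced by BMP signals. Smad6 read 0.57, -0.0636 and 0.14 in mutant samples, against 0.0885, -0.27 and -0.0177 in wildtype samples. The ranges overlapped, yet each mutant sample was above the wildtype sample of its own number, by 0.49, 0.2 and 0.15. Smad6 averaged 0.22 ± 0.33 in mutant and -0.0658 ± 0.18 in wildtype samples (SD, n = 3), a difference of 0.28 ± 0.18 (SE, limma adjusted p = 0.873; 0.425 with the replicate block). The mutant 1 array carried much of it, since the difference was 0.1 without that array and 0.000812 without the mutant 1 and wildtype 2 arrays.

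Smad7 read -0.19, -0.0385 and -0.0913 in mutant samples, against -0.0606, -0.31 and 0.11 in wildtype samples. Its mutant samples lay inside the wildtype range, and the difference was -0.016 ± 0.13 (SE), with a 95% interval of 80% to 122% of wildtype (limma adjusted p = 0.985).

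The Id genes encode helix-loop-helix proteins that lack a DNA-binding region and hold back basic helix-loop-helix activators of differentiation; they are among the most direct targets of SMAD1 and SMAD5. Id1 read 0.3, -0.53 and -0.15 in mutant samples, against -0.15, -0.58 and -0.25 in wildtype samples. It varied more between pools than between groups, being lowest in pool 2 of both, and the mutant sample was the higher one in 3 of 3 pool pairs, by 0.46, 0.0423 and 0.1. The difference was 0.2 ± 0.22 (SE, adjusted p = 0.879), and -0.0138 without the mutant 1 array.

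Id2 read -0.28, -0.0416 and 0.25 in mutant samples, against 0.1, -0.16 and 0.11 in wildtype samples. Mutant pool 1 was the lowest of all 6 samples and mutant pools 3 and 4 the highest, so the mutant range enclosed the wildtype one (difference -0.0404 ± 0.16 SE, adjusted p = 0.967).

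Id3, with log2 Cy5 levels of 13.8 on the mutant 1 array and 14.6 to 14.9 on the others, read -0.81, 0.0585 and 0.22 in mutant samples, against 0.025, -0.0963 and 0.0849 in wildtype samples. A single sample, mutant pool 1, lay far below the rest, while the other 2 mutant samples were 0.15 and 0.13 above their wildtype partners. The difference was -0.18 ± 0.26 (SE, adjusted p = 0.893), and it turned to 0.13 without the mutant 1 array. The 95% intervals for the mutant level of Id1, Id2 and Id3 were 79.9% to 165%, 75.1% to 126% and 57.8% to 134% of wildtype.

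With mutant pool 1 included, the response genes did not vary as one group across the samples. Over the 6 samples, Id1 varied with Smad6 (Pearson r = 0.97) and Id2 with Id3 (r = 0.84), while Id1 and Id3 varied in opposite directions (r = -0.67). That negative r rests on mutant pool 1, where Id1 was highest (0.3) and Id3 lowest (-0.81). Among the other samples Id1, Id2, Id3, Smad6 and Smad7 were all lowest in wildtype pool 2 (-0.58, -0.16, -0.0963, -0.27 and -0.31). These correlations are descriptions over samples that share pool numbers and one reference RNA, and mutant pool 1 lies at an end of each. That sample was the highest or lowest of the 6 for 8 of the 10 genes, highest for Bmp2, Bmp4, Bmp7, Smad6 and Id1 and lowest for Bmpr1a, Id2 and Id3. The same held for 62.2% of all probes.

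**Figure D3:**
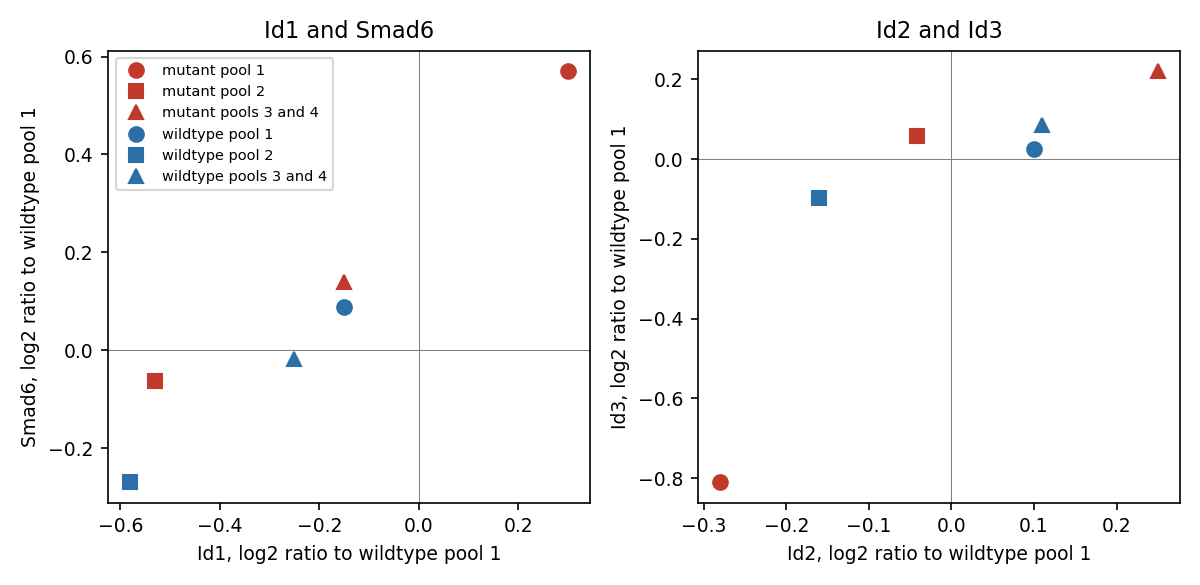
Log2 ratio to wildtype pool 1 of Id1 against Smad6 (left) and of Id2 against Id3 (right) in the 6 samples; red is mutant, blue wildtype, and shapes show pools. Mutant pool 1 is at the upper right end for Id1 and Smad6 (0.3 and 0.57) and at the lower left end for Id2 and Id3 (-0.28 and -0.81).

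The promoter windows of 3 response genes and of Grem1 are printed to show which SMAD-type motifs lie near their starts. A link between motifs and expression was not tested. Windows of 250 bases before to 50 after the start were read for 6 of the 10 genes (RefSeq, build GRCm38.p6). Bmp2, Bmp7 and Id1 were not among them because the sources used here held no window for these genes. Smad7 was left out of this reading, so whether its window holds any of the motifs was not examined. Capitals mark matches, on either strand, to GGCGCC (its own reverse complement), to GGAGCC or its reverse complement GGCTCC, and to GTCTAGAC (its own reverse complement), motifs known to be bound by SMADs; no matches overlap.
Id2 (chr12:25096043-25096342, minus strand): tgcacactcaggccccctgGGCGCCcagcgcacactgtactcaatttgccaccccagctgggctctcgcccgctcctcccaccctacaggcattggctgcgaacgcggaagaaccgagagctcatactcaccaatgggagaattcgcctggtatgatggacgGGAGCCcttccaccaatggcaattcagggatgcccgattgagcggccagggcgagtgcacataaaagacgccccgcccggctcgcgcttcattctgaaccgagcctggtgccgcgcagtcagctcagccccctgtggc
Id3 (chr4:136143572-136143871, plus strand): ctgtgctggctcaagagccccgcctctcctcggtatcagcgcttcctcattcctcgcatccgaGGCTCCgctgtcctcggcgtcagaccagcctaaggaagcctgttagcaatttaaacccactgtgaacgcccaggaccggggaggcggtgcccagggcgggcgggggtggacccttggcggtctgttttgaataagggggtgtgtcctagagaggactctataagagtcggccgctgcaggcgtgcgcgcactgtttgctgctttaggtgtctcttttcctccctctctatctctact
Smad6 (chr9:64022010-64022309, minus strand): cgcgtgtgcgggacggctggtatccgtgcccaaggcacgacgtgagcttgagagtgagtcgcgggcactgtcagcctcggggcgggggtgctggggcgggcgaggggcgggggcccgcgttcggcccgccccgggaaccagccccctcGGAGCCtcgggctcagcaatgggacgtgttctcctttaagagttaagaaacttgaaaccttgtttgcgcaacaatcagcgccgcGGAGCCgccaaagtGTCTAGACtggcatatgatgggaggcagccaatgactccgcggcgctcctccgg
Grem1 (chr2:113758599-113758898, minus strand): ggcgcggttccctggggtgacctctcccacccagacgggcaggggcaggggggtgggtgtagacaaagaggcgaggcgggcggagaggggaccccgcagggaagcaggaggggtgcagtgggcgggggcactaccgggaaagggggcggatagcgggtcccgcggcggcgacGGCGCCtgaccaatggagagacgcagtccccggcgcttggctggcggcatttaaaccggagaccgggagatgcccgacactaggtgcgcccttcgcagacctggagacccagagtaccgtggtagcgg
The Smad6 window holds 1 GTCTAGAC, which 0.213% of all 32851 promoter windows of this length hold, and 2 matches to GGAGCC or its reverse complement, which 30.8% hold at least once. Id2 has 1 match to GGCGCC, found in 11.9% of windows, and 1 to GGAGCC, and Id3 has 1 to its reverse complement. Grem1 and Bmpr1a have 1 GGCGCC each and Bmp4 has 1 match to GGAGCC or its reverse complement. These windows are rich in G and C, 60% to 79.3% over the 6, against a median of 52.7% over all windows, and a match describes letters, not binding.

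The rest of the pathway was read from lists of 77 genes by role, all on the array, of which 66 passed the filter; those that did not include the ligand gene Bmp10, the decoy receptor gene Bambi and the target gene Junb. Of the 66, 0 rose and 0 fell in limma, with or without the replicate block, where 0.0353% and 0.141% of all genes passed at their brightest probe. At an unadjusted p under 0.05 there were 9 of the 66 without the block and 14 with it, against 7.05% and 12.1% of all genes. Mutant means were higher in 41 of the 66, compared with 50.5% of all genes, and the median difference was 0.057. Samples of the groups did not overlap for 10 genes higher and 3 lower in the mutants, where 8.72% and 5.95% of all genes had such a pattern.

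**Figure D4:**
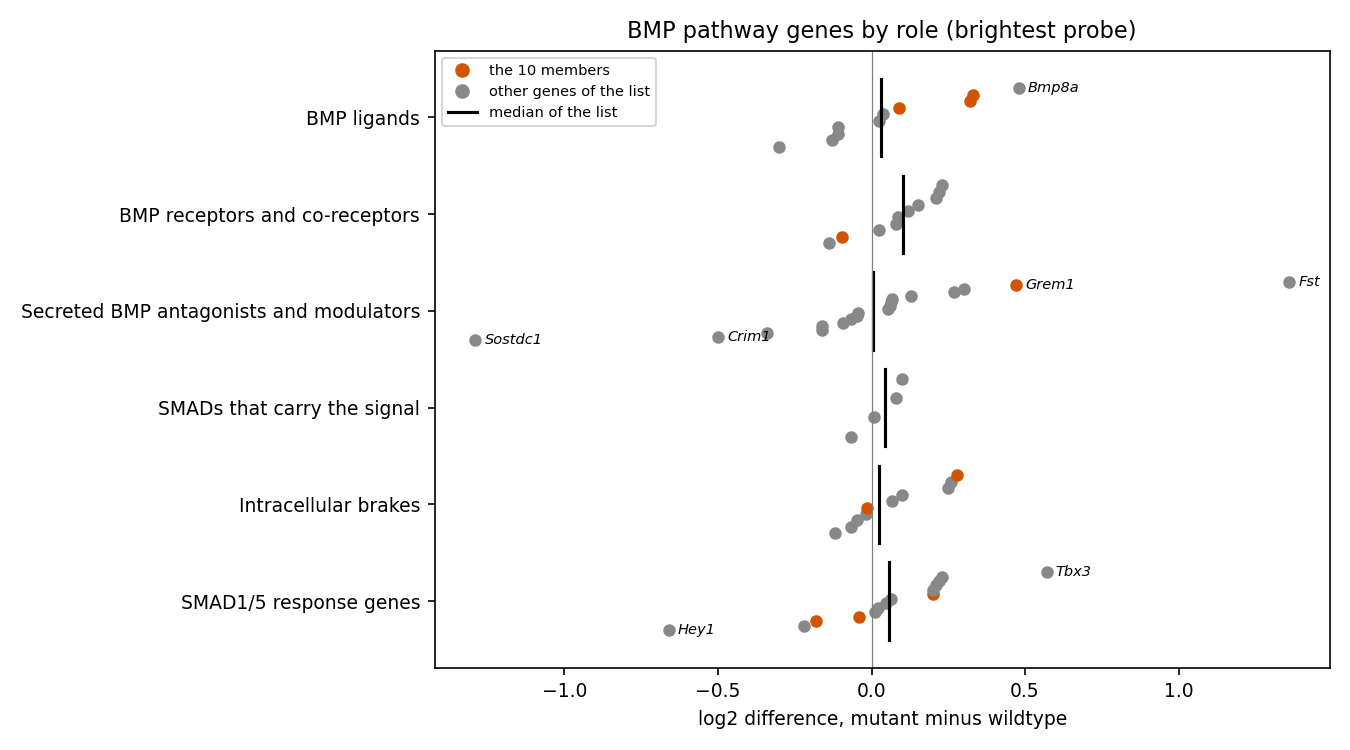
Log2 difference, mutant minus wildtype, of the 66 measured pathway genes at their brightest probe, by role; orange points are the 10 genes of this account, grey points the others, and black lines list medians. The widest spread is among secreted antagonists and modulators, from Sostdc1 at -1.29 to Fst at 1.36; no gene passed the adjusted threshold.

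Secreted antagonists and modulators (18 measured, median 0.00513) held the widest differences, in both directions. Fst encodes follistatin, which binds activins and, more weakly, BMPs. It read 1.76, 0.84 and 0.83 in mutant samples, against 0.0602, -0.12 and -0.58 in wildtype samples, without overlap (difference 1.36 ± 0.28 SE, limma adjusted p = 0.348, and 0.0746 with the replicate block). Sostdc1, a secreted antagonist of BMP and Wnt signals found in developing tubules, read -1.07, -2.23 and -0.63 in mutant samples, against 0.26, -1.21 and 0.89 in wildtype samples. Its groups overlapped because pool 2 was low in both, and within the pairs the mutant sample was lower in 3 of 3 (difference -1.29; adjusted p = 0.826 without and 0.0615 with the replicate block). It was -0.83 without the mutant 2 array, -0.84 without the wildtype 3 and 4 arrays and -1.89 without the wildtype 2 array. A second Sostdc1 probe differed by -1.25 ± 0.58 (SE, limma adjusted p = 0.83 without and 0.144 with the replicate block). Crim1, a membrane protein that tethers BMPs, read -0.55, -0.46 and -0.22 in mutant samples, against -0.0767, 0.4 and -0.0328 in wildtype samples (difference -0.5 ± 0.16 SE, adjusted p = 0.587). Its log2 Cy5 level was 10.8 on the wildtype 2 array, against 7.73 to 8.56 on the others, and its Cy3 difference was -0.46. Leaving out samples gave Crim1 differences of -0.6 to -0.28. With the 8 arrays counted separately Fst passed, at an adjusted p of 0.0374, and Sostdc1 passed only when the replicate block was added (0.00571).

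Of the 10 ligand genes measured, with a median of 0.0305, the gene of a further BMP, Bmp8a, had the widest difference. It read 0.55, 0.16 and 0.56 in mutant samples, against -0.13, -0.0665 and 0.00676 in wildtype samples, without overlap (difference 0.48 ± 0.13 SE, limma adjusted p = 0.505). Gdf5, a growth factor best known from joints, differed by -0.3 ± 0.23 and Bmp3, which opposes other BMPs, by -0.13 ± 0.29 (SE). In the Cy5 channel taken alone Bmp3 differed by 0.19 and Gdf5 by -1.85 ± 1.36 (SE). The Gdf5 difference was -0.0895 without the wildtype 2 array and -0.026 without the mutant 1 and wildtype 2 arrays, and that of Bmp3 was 0.16 without the mutant 2 array. Receptor genes (10 measured, median 0.101) had differences between -0.14 and 0.23. The type I receptor genes Acvr1, Acvrl1 and Bmpr1b differed by 0.23 ± 0.13, 0.22 ± 0.23 and 0.21 ± 0.23 (SE), and a second Acvr1 probe and a second Bmpr1b probe by -0.0354 ± 0.24 and -0.11 ± 0.28. Leaving out the mutant 1 array gave 0.11 for Acvr1 and -0.0276 for Bmpr1b, and leaving out the wildtype 2 array gave 0.00279 for Acvrl1.

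The 4 genes of SMADs that carry the signal had differences from -0.0684 to 0.0978 at their brightest probes. Smad1, Smad9 and Smad5 differed by 0.0978 ± 0.21, 0.0783 ± 0.11 and -0.0684 ± 0.12 (SE). Probes disagreed for Smad4, whose product joins the phosphorylated SMADs: its brightest probe differed by 0.00658 ± 0.0948 and its other probe by -0.54 ± 0.33 (SE), lower in 3 of 3 pairs (limma adjusted p = 0.991 and 0.873). Within the pairs of pools 1, 2, and 3 and 4 that other probe differed by -1.23, -0.00553 and -0.38. Second probes of Smad1 and Smad5 differed by -0.00942 ± 0.15 and 0.12 ± 0.1 (SE). Intracellular brakes (10 measured, median 0.0252) included Pmepa1, a membrane protein that sequesters SMADs, at 0.26 ± 0.13 and, at its dimmer probe, 0.41 ± 0.13 (SE). The antiproliferative gene Tob2 and the ubiquitin ligase gene Smurf2 differed by 0.25 ± 0.35 and -0.12 ± 0.16 (SE). Without the mutant 1 array these were -0.14 and 0.0428, and without pool 1 of both groups, in the fit with the replicate block, 0.048 and -0.0269. Other Smurf2 probes differed by -0.14 ± 0.22 and 0.11 ± 0.28 (SE).

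Of the 14 response genes measured, with a median of 0.0554, Hey1 stood out. This transcriptional repressor, which answers to Notch as well as to BMP signals, read -0.81, -0.88 and -0.86 in mutant samples, against -0.14, -0.33 and -0.0992 in wildtype samples. The mutant samples lay close together and below every wildtype sample, a difference of -0.66 ± 0.1 (SE) that missed the threshold (limma adjusted p = 0.176) and passed with the 8 arrays counted separately (0.0069). Tbx3 and Tbx2, T-box repressor genes induced by BMPs in several organs, differed by 0.57 ± 0.22 and 0.23 ± 0.15 (SE), and without the mutant 1 array by 0.32 and 0.0678. For Tbx3 the mutant samples read 1.01, 0.14 and 0.41, against 0.00305, -0.17 and 0.0365 in wildtype samples, without overlap.

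Marker lists of other kidney cells were read beside these results. All 10 interstitial stroma markers had a higher mutant mean, and their mean ratio was 0.37, 0.14 and 0.47 in mutant samples, against 0.04, -0.06 and 0.08 in wildtype samples. Of the endothelial markers 7 of 10 were higher in mutants (mean ratio -0.04 to 0.16 in mutant and -0.26 to 0.02 in wildtype samples), and of the ureteric bud markers 6 of 10 (-0.21 to 0.16 and -0.33 to -0.03). Renal vesicle markers were higher in 2 of 10 (mutant -0.66 to -0.33, wildtype -0.27 to 0.08), and of the 10 progenitor markers 7 had a lower mutant mean. Macrophage markers (5 of 9 higher) and erythroid markers (7 of 10) had median differences of 0.00868 and 0.0398. Every stromal, endothelial and bud marker was well above background on all 8 arrays, and no marker of these 3 lists passed limma. The part of such cells in the Bmp2, Bmp7 and Grem1 values was not tested.

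Among 14812 named genes with a value in every sample, the genes whose ratios varied most like those of Bmp7 over the 6 samples were Mfap2, Pcdhac2 and Runx1t1 (Pearson r = 0.993, 0.99 and 0.99). For Bmp4 they were Rbm4, Iqce and Slc36a1 (0.997, 0.986 and 0.986), and for Id1 they were Pax8, Ptpn18 and Scube2 (1, 0.998 and 0.995 after rounding). These are descriptions over 6 samples that share pool numbers and one Cy3 RNA. None of these 9 genes passed limma; their differences lay between 0.0411 and 0.4.

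**Figure D5:**
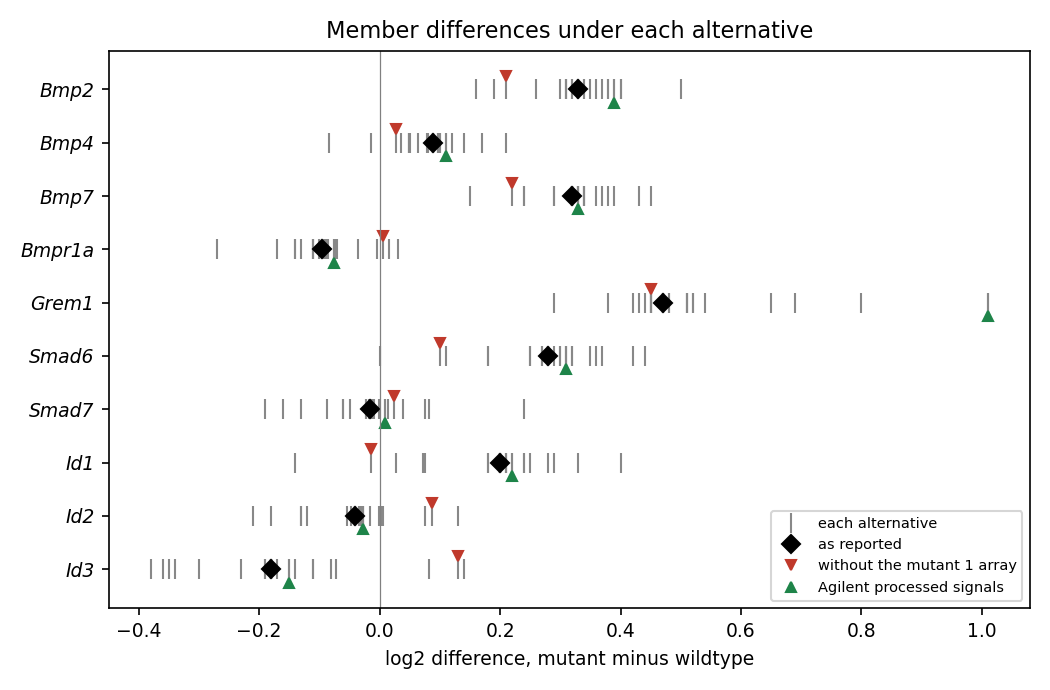
Log2 difference, mutant minus wildtype, of the 10 genes as reported (diamonds) and under each of 28 alternatives (grey ticks), with the value without the mutant 1 array in red and with Agilent processed signals in green. Bmp2, Bmp7, Grem1 and Smad6 stay above 0 under all 28; Id3 moves from -0.18 to 0.13 without the mutant 1 array.

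Across 28 alternatives of processing and sample choice, the differences of Bmp2 (0.16 to 0.5), Bmp7 (0.15 to 0.45), Grem1 (0.29 to 1.01) and Smad6 (0.000812 to 0.44) kept a positive sign. The signs of Bmp4, Bmpr1a, Smad7, Id1, Id2 and Id3 changed under 2 to 8 of them.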

How the data were processed

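Two-colour Agilent arrays were read for 4 mutant and 4 wildtype pools. Spot brightness was deposited as intensity (median spot and background signal of both dyes) beside signals processed by Agilent Feature Extraction 10.7.3.1; the file headers and submitters' notes name that program. The deposited value table holds log10 ratios of Cy5 over Cy3. Each column lay within 0.00498 of the ratios in the scanner output, which settled scale and direction; the wildtype 2 column had a median of 0.00483 and the other 7 columns of 0.

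From the deposited intensities, log2 ratios were computed in limma 3.58.1 (R 4.3.3) after normexp (offset 50) and loess within each array, in which control spots and outliers had no weight; outlier spots were then dropped. A probe was kept where at least 3 of the 4 arrays of a group had it well above background in Cy5. Symbols came from RefSeq accessions (27509 probes, GRCm38.p6, used for names). Groups were compared by limma (lmFit, eBayes, two-sided) over all 30364 probes, with Benjamini-Hochberg adjustment; the fit was tested on simulated data. For 504 probes without a value in some sample, Bmp5 and Rgma among the lists, the remaining samples were used. Arrays give no count of molecules, so their number limits the precision. Same-numbered samples deviated together (r = 0.516, 0.523 and 0.507 for pools 1, 2, and 3 and 4, against -0.47 to -0.112 for different numbers). Deviations were taken from the group mean and cancel within a group. Positive values for the same numbers therefore leave mainly negative ones for different numbers. The replicate block rests on that check, since no label ties the numbers together. Same-numbered arrays also shared a slide column, so the check cannot separate a tie between pools from slide position.

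The members and gene lists were chosen with earlier results of these data known. Genes named from the lists are the 3 with the widest difference in each role, besides the members and any gene called with or without the block, and the 3 most like Bmp7, Bmp4 and Id1; second probes, genes that did not pass the filter and marker lists were added as values. Alternatives covered background correction, scaling, filters, variance model, replicate block and left-out samples.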

Additional observations from a re-analysis of the deposited data

How the results depend on the processing

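Counts of all probes past the adjusted threshold moved most, from 8 to 35 with the replicate block, 254 with the 8 arrays as separate samples and 671 with both, to 4 each with spike-in centring, with probes well above background on all 8 arrays and with trended, robust variances, and to 0 in Cy5 alone (1089 at an unadjusted p under 0.05). Leaving out samples gave 0 to 10, and 2, 5 and 16 with the block. Of the 10 genes, 0 passed throughout, except Grem1, 1 of 10, with 8 separate arrays, with or without the replicate block; of the 66 pathway genes, 0 passed except 3 and, with the block, 4 there. The block changed no other call of a named gene. Spike-in centring moved the median of all probes to -0.176 and Cy5 alone to 0.145. The 3 of 10 genes at an unadjusted p under 0.05 became 0 to 4 over the alternatives, 0 with spike-in centring and with the block without pools 3 and 4. Signs turned with Agilent processed signals (Smad7 0.00934), the deposited value table (Smad7 0.00943), median centring (Smad7 0.0133, Bmpr1a 0.0156, Id2 0.0757, Smad5 0.0489), Cy5 alone (Smad7 0.24, Bmp3 0.19), spike-in centring (Bmp4 -0.0848, Smad1 -0.0763, Smad9 -0.0958) and 8 separate arrays with or without the block (Id2 0.00457); the cause was not tested. Differences that turned when samples were left out ranged over Id3 -0.38 to 0.13 (0.14 with the block), Smad7 -0.13 to 0.082 (with the block 0.0392 and 0.0749), Bmpr1a -0.17 to 0.0312, Bmp3 -0.55 to 0.16, Id2 -0.18 to 0.0876 (0.13 with the block), Smurf2 -0.2 to 0.0837, Smad1 -0.0277 to 0.34 (-0.0788 with the block), Tob2 -0.29 to 0.57, Acvrl1 -0.1 to 0.4, Id1 -0.14 to 0.4, Smad5 -0.15 to 0.0422 (0.00241 with the block), Smad9 -0.0185 to 0.15 (-0.000599 with the block), Bmp4 -0.0143 to 0.14 (0.17 with the block) and Bmpr1b -0.12 to 0.38. Leaving out the mutant 1 and wildtype 2 arrays together was chosen after seeing the data. The 3 samples a group, a common reference from the wildtype group and dim probes such as Grem1 limit what could be called.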
